A study of Mus musculus with 6 samples.

Results

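The transcripts described here are those of Trp53, the mouse gene for the tumour suppressor p53, and of 9 genes tied to it: Mdm2, Mdm4, Ccng1, Zmat3, Trp53inp1, Phlda3, Gadd45a, Aen and Eda2r. They were taken by symbol from the 54232 gene IDs in each count file, and all 10 were found. The libraries come from C57/B6 mouse fetal liver at E13.5, from cells purified as negative for Ter-119, which marks red cells as they mature. Of the 6 libraries, 3 hold untreated cells at day 0 and 3 hold cells after 30 h of culture with EPO (erythropoietin, the main hormone of red cell production). The 30 h cells had received the solvent DMSO at 24 h, for the last 6 h, as the solvent control of an arm given Z-VAD-FMK, a caspase inhibitor, which was not analysed here. All cells share strain and stage, and both groups are labelled progenitor cells. The comparison of 30 h with day 0 joins the effects of time, culture, hormone and solvent, which cannot be told apart. No label states that replicates were separate cultures or litters, so the p-values measure the spread between these samples, which may be technical.

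p53 is a transcription factor that is held at a low protein level by the ubiquitin ligase MDM2, helped by its relative MDM4. DNA damage, loss of ribosome assembly and other stresses release it, and it then raises genes for cell cycle arrest, repair and apoptosis, with Mdm2 among them as a feedback inhibitor. Its activity is set largely at the protein, which these data do not measure. In the red cell lineage p53 is best known for the arrest and death of erythroblasts when ribosomal proteins are lacking.

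p53 mRNA fell during the culture while most of the measured target genes rose. Of the 10 genes, 6 were higher at 30 h, 1 was lower and 3 did not pass the test. Higher were Gadd45a, Trp53inp1, Eda2r, Mdm2, Ccng1 and Mdm4, by 25.1-fold to 2.16-fold, and Trp53 itself was 2.35-fold lower. Zmat3, Phlda3 and Aen changed by less than the test could separate from the spread. The test was edgeR's quasi-likelihood test over all genes, with an adjusted p below 0.05 as the threshold. Against this stands a transcriptome of which 34.4% of 16150 genes tested were called higher and 40.1% lower, 74.5% together, so a call in either direction is common and the direction and size carry more information. All 10 genes passed the filter on low counts, but Eda2r passed it through its 30 h libraries. Only 2 of its 3 day 0 libraries were above the limit of 0.385 CPM, here taken relative to the unscaled library total. Among the other 9 genes, 5 were higher and 1 lower. In bulk samples fewer cells expressing a gene and less RNA per cell cannot be told apart.

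**Figure D1:**
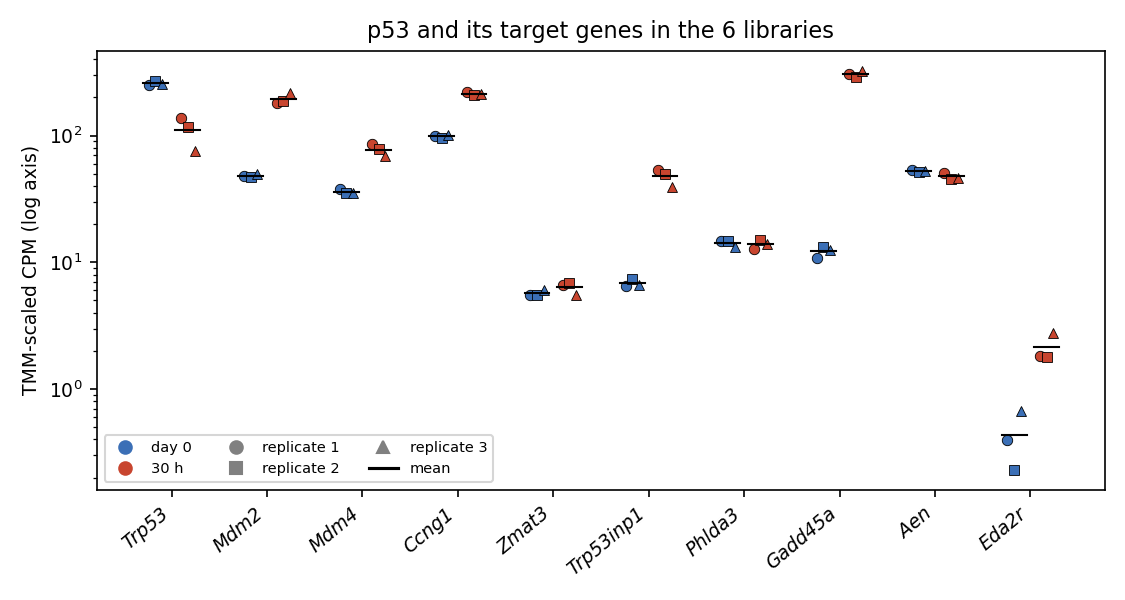
Level of each gene in every library, in TMM-scaled CPM on a log axis, with day 0 in blue, 30 h in red, a marker shape for each replicate and a bar at the group mean. Trp53 lies between 253 and 269 CPM at day 0 and between 76.3 and 139 CPM at 30 h, whereas Gadd45a moves from 10.9 to 13.3 CPM up to 292 to 325 CPM.

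Library totals lay between 19241780 and 29949173 counts. The erythroid markers, 10 genes including the globin gene Hbb-bs and Slc4a1, were all higher at 30 h, with a summed level of 1739 to 1907 CPM at day 0 and 93049.5 to 133042 CPM at 30 h. Non-erythroid markers did not all move the same way. Lower at 30 h were 8 of 10 hepatoblast genes, with a summed level of 13749.6 to 15600.2 CPM, then 820.1 to 2362 CPM. So were 7 of 7 endothelial genes (172 to 199 CPM, then 30.4 to 38.4 CPM) and 6 of 7 mesenchymal genes (1473 to 1877 CPM, then 23.7 to 56.4 CPM). None of these hepatoblast, endothelial or mesenchymal markers was at 0 in all 3 libraries of 30 h, though the endothelial genes Stab2 and Emcn were at 0 in 1 library each. Of 8 macrophage markers 4 were higher and 2 lower, and their sum went from 363 to 370 CPM at day 0 to 862 to 1267 CPM at 30 h. Lyz2 made up most of that rise (168 ± 14.6 and 900 ± 187 CPM): without it, a sum added after the values were seen, the other 7 genes came to 186 to 209 CPM and 144 to 217 CPM, which overlap. Vcam1, another of the 8, fell from 74.8 ± 5.48 to 2.60 ± 0.85 CPM. Granulocyte and mast cell markers were split, with 3 of 8 higher and 3 lower. Their sum was 3178 to 3286 CPM at day 0 and 3665 to 5689 CPM at 30 h. Among 6 megakaryocyte markers 1 was higher (Pf4, 165 ± 13.8 and 480 ± 176 CPM) and 3 lower. Their sums overlapped, at 570 to 688 CPM and 597 to 975 CPM. Among 5 lymphoid markers tested 2 were lower and 0 higher. The part of these shifts in cell makeup in the values below was not tested. Replicate 3 of the 30 h group stood apart, its counts differing from its replicates at 87.9 and 48.7 chi-square per degree of freedom, where the other replicate pairs gave 4.27 to 11.0. In that library genes with up to 2414 bases of exon differed from the other 30 h libraries by a median of 0.268 on the log2 scale, and genes with 6462 bases or more by -0.325.

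The 10 genes lie on 8 chromosomes of the mm10 assembly, with merged exons of 1559 bases (Phlda3) to 14798 bases (Mdm4). GC content of the longest transcript ran from 38.8% in Trp53inp1 to 62.6% in Phlda3. GC content bears on this comparison: over all genes in 4 bins of equal size the median log2 change was 0.269 in the bin lowest in GC and -0.546 in the highest. Exon length does so too. The median was 0.389 in genes with up to 2414 bases of exon and -0.279 in those with 6462 or more. None of the alternative settings removed a length trend. Gadd45a was the one gene with exons that overlap another gene, an opposite-strand transcript (E230016M11Rik) with 10 to 21 counts per library, against 384 to 6200 for Gadd45a. The processed pseudogenes Trp53-ps and Mdm4-ps had at most 1 count in any library, so few reads of Trp53 and Mdm4 were assigned there.

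Promoter sequence was examined because p53 binds a known DNA sequence, made of 2 copies of a 10-base half-site. RefSeq windows from 250 bases before to 50 bases after the start site (GRCm38.p6) were at hand for 8 of the 10 genes, in 10 windows; those of Zmat3 and Trp53inp1 were not among them. A perfect copy of the p53 half-site consensus, which reads the same on both strands, was present in 6 of the 10 windows, those of Trp53, Mdm2, Ccng1, Gadd45a and both overlapping windows of Aen, which share 1 copy. Of 32544 distinct windows of this length from all genes, 8.36% held a copy. A match is a description of the letters and shows no binding. Upstream sequences of Trp53, Mdm2 and Ccng1, and the 30 bases around the copy in Gadd45a and Aen, are given below 5′ to 3′ on the gene's strand, with the half-site in capitals, to show where it lies in these genes.
Trp53, chr11:69580109-69580358, plus strand: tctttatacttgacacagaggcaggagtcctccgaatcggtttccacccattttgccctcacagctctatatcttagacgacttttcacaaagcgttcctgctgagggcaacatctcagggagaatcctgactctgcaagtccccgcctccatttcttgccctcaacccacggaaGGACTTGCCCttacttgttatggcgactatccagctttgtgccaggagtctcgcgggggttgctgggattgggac
Mdm2, chr10:117710759-117711008, minus strand: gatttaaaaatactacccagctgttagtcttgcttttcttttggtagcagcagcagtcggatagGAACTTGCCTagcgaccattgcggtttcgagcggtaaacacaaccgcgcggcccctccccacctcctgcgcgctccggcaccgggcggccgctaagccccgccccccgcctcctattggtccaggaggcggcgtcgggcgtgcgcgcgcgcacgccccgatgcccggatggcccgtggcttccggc
Ccng1, chr11:40755287-40755536, minus strand: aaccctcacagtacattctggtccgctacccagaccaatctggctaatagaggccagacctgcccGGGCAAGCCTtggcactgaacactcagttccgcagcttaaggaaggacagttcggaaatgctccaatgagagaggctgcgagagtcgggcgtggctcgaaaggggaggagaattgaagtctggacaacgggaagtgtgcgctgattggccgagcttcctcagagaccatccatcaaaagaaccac
Gadd45a, chr6:67037428-67037457, minus strand: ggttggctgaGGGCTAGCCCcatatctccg
Aen, chr7:78895927-78895956, plus strand: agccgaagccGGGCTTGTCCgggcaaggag

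In Ccng1 the half-site begins at base -185, counted from the start site, and is preceded directly by 10 bases that differ from the consensus at 1 letter, which together form a p53 site of 20 bases. A site of 20 bases with at most 1 letter off was found in 29 of the 32544 windows (0.0891%), and among the 10 windows of these genes only in that of Ccng1. The copy begins at -40 in Gadd45a, at -75 in Trp53, at -121 from the second start of Aen and at -186 in Mdm2. Windows of Mdm4, Phlda3 and Eda2r held no perfect copy. Genes with a copy were thus found among those higher (Mdm2, Ccng1, Gadd45a), lower (Trp53) and not called (Aen). The intron of Mdm2 that is known to carry its p53 sites lies outside these windows and was not analysed here.

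Trp53 (chromosome 11, 69580359 to 69591873, plus strand, ENSMUSG00000059552) encodes p53. Its level was 253, 269 and 258 CPM in day 0 replicates 1, 2 and 3, and 139, 117 and 76.3 CPM in those of 30 h. All 3 libraries of 30 h were below all 3 of day 0, and replicate 3 was the lowest. The log2 change was -1.23 ± 0.20 (SE; edgeR adjusted p = 0.000734). Without 30 h replicate 3 it was -1.02, with each library's GC trend removed -0.80 and with scaling by library totals only -1.72, past the threshold each time. In replicate 3 Trp53 stood 0.74 below the other 30 h libraries on the log2 scale (-0.74), where genes of the same length bin stood at a median of 0.02. Its coefficient of variation was 28.7% at 30 h and 3.17% at day 0. At day 0 Trp53 was the most abundant of the 10 genes per length, at 64.3 ± 2.04 reads per kilobase of exon after scaling to CPM, and at 30 h it was the fourth, at 27.4 ± 7.85 (SD, n = 3 each).

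Mdm2 (chromosome 10, 117688875 to 117710758, minus strand), the ubiquitin ligase that marks p53 for degradation and is itself a p53 target, rose 4.04-fold. It stood at 47.7, 47.4 and 50.2 CPM at day 0 and at 181, 187 and 218 CPM at 30 h. The groups were far apart, and the highest value was that of 30 h replicate 3, the library in which Trp53 was lowest. The log2 change was 2.01 ± 0.11 (SE; edgeR adjusted p = 2.463e-06), with a range of 1.52 to 2.16 over 17 other settings. Mdm4 (chromosome 1, 132959484 to 133030561, minus strand), which binds p53 and blocks its activity, rose as well, from 38.0, 35.0 and 35.1 CPM to 86.3, 77.7 and 68.9 CPM. The change was 2.16-fold (log2 1.11 ± 0.11, edgeR adjusted p = 5.458e-05), and no value of one group reached the other. With scaling by library totals only it was 0.62 on the log2 scale, still past the threshold.

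Ratios within a library do not depend on the scaling between libraries. Per kilobase of exon, Mdm2 transcripts were 0.150, 0.140 and 0.155 times as abundant as those of Trp53 at day 0, and 1.04, 1.27 and 2.28 times at 30 h. By this measure Mdm2 transcripts stood above those of Trp53 in all 3 cultured libraries, though barely so in replicate 1. The mean ratio was 10.3-fold higher at 30 h than at day 0. The ratio of Mdm4 to Trp53 went from between 0.0355 and 0.0410 to between 0.170 and 0.247. That of Mdm2 to Mdm4 went from between 3.66 and 4.17 to between 6.12 and 9.23, so the ligase rose more than its relative in these libraries. The 30 h values of each ratio lay above all day 0 values and were the highest in replicate 3. Division by merged exon length sets the absolute size of each ratio, and so which gene stands above the other, but it cancels from the change. In 30 h replicate 3 Mdm4 stood at -0.25 on the log2 scale against the other 30 h libraries, and genes of its length bin at a median of -0.32. Mdm2 stood at 0.25, and its length bin at -0.15. The part of gene length in these changes was not tested.

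**Figure D2:**
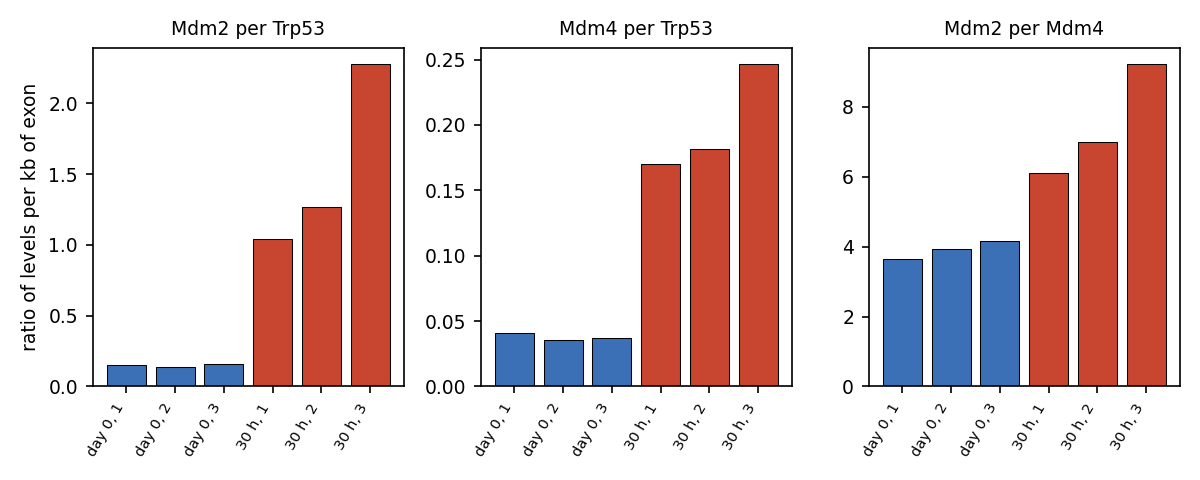
Ratio of the levels per kilobase of exon in each library, for Mdm2 to Trp53, Mdm4 to Trp53 and Mdm2 to Mdm4, with day 0 in blue and 30 h in red. Mdm2 to Trp53 is between 0.140 and 0.155 in the day 0 libraries and between 1.04 and 2.28 at 30 h, and no group overlaps the other in any panel.

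Among the targets that act on the cell cycle and DNA repair, Gadd45a changed the most. Gadd45a (chromosome 6, 67035096 to 67037457, minus strand) encodes a small protein that responds to DNA damage and other stresses and acts in arrest and repair. Its level was 10.9, 13.3 and 12.6 CPM at day 0 and 306, 292 and 325 CPM at 30 h, a 25.1-fold difference (log2 4.65 ± 0.12, edgeR adjusted p = 2.617e-07). Counted with its sign, so that every fall ranks below a rise, this log2 change was above that of 99.3% of all genes tested. It lay between 4.16 and 4.95 over the 17 other settings. Gadd45a made up 2.05% to 2.46% of the counts of the 10 genes at day 0 and 28.9% to 32.2% at 30 h, while Trp53 went from 47.8% to 49.8% down to 7.56% to 13.1%. Ccng1 (chromosome 11, 40748552 to 40755311, minus strand) encodes cyclin G1, which recruits a phosphatase to MDM2. It stood at 99.0, 96.6 and 102 CPM at day 0 and at 220, 210 and 212 CPM at 30 h, so the 30 h libraries lay close together. Its change was 2.16-fold (log2 1.11 ± 0.09, edgeR adjusted p = 1.313e-05), and 0.62 on the log2 scale with scaling by totals only.

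The remaining targets, most of them tied to cell death or survival signals, split into a pair that rose and others that did not pass. Trp53inp1 (chromosome 4, 11156431 to 11174379, plus strand), whose protein acts in p53-dependent death and in autophagy, stood at 6.53, 7.39 and 6.59 CPM at day 0 and at 53.9, 49.6 and 39.4 CPM at 30 h. All 30 h values were several times those of day 0, with replicate 3 the lowest of them. The change was 6.97-fold (log2 2.80 ± 0.15, edgeR adjusted p = 2.499e-06). Eda2r (chromosome X, 97333840 to 97377216, minus strand), a receptor of the tumour necrosis factor receptor family that binds ectodysplasin A2, had only 14, 8 and 22 counts at day 0 and 37, 30 and 44 at 30 h. In scaled units these were 0.396, 0.231 and 0.668 CPM and 1.83, 1.79 and 2.77 CPM. The groups did not overlap, as in 79.7% of all genes tested, and the gene had passed the count filter through its 30 h libraries. Its change of 4.89-fold had a wide 95% interval, 1.41 to 3.17 on the log2 scale (edgeR adjusted p = 0.0008157).

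Zmat3, Phlda3 and Aen did not pass the test. Zmat3 (chromosome 3, 32334792 to 32366014, minus strand), an RNA-binding regulator of splicing and a known p53 target, had 5.57, 5.54 and 6.07 CPM at day 0 and 6.66, 6.91 and 5.48 CPM at 30 h. The groups overlapped, and the log2 change of 0.15 had a 95% interval of -0.18 to 0.48 (edgeR adjusted p = 0.3609). Totals-only scaling gave -0.34, and removing the GC trend gave 0.36, then past the threshold (adjusted p = 0.04884).

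Phlda3 (chromosome 1, 135766119 to 135769136, plus strand), whose protein restrains the kinase AKT, had 14.7, 14.6 and 13.2 CPM at day 0 and 12.7, 15.1 and 13.9 CPM at 30 h. Its groups overlapped as well, with a log2 change of -0.03 and an interval of -0.30 to 0.24 (edgeR adjusted p = 0.8208). This value depended on the processing more than that of any other of the 10 genes: totals-only scaling gave -0.52 (adjusted p = 0.005723), and removing the GC trend gave 1.00 (adjusted p = 3.764e-05). Phlda3 is the highest in GC of the 10, and its direction is not settled by these data. Aen (chromosome 7, 78895854 to 78911209, plus strand), an exonuclease of apoptotic cells, had 54.0, 51.6 and 52.8 CPM at day 0 and 51.1, 45.7 and 46.6 CPM at 30 h. The groups were just apart, a feature of 79.7% of all genes tested, and the log2 change of -0.14 had an interval of -0.36 to 0.07 (edgeR adjusted p = 0.1968). It was called lower with scaling by totals only (-0.63) and by the upper quartile (-0.28), and was 0.22 with the GC trend removed, where it did not pass.

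**Figure D3:**
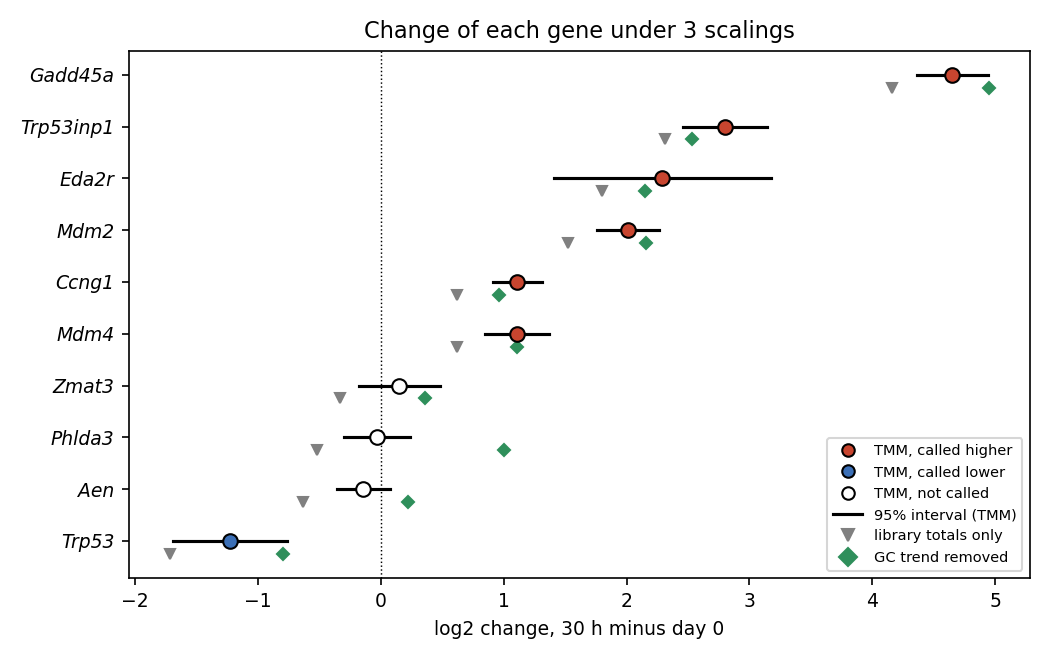
Log2 change of each gene from day 0 to 30 h, with the 95% interval of the TMM-scaled fit as a line, and the value with scaling by library totals only (triangle) and with the GC trend removed (diamond). Gadd45a (4.65) to Mdm4 (1.11) stay above 0 and Trp53 (-1.23) below 0 in all 3, whereas Zmat3, Phlda3 and Aen change sign among them.

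Scaling moved the whole transcriptome, which bears on the smaller changes. The median log2 change of all genes was -0.09 with TMM, -0.58 with scaling by totals only, -0.23 with the upper quartile and 0.18 with the GC trend removed, and higher genes were 46.1%, 29.1%, 40.6% and 56.3% of the calls. The 6 genes called higher and Trp53 kept their direction and call in all 17 other settings, including each library left out. With the GC trend removed 8 of the 10 were higher and 1 lower. Totals-only scaling left 6 higher and made 3 lower.

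Levels per length were compared within each group, in CPM per kilobase of exon. At day 0 the order was Trp53 (64.3), Ccng1 (28.2), Mdm2 (9.52), Phlda3 (9.11), Aen (9.10), Gadd45a (6.94), Mdm4 (2.43), Trp53inp1 (1.06), Zmat3 (0.501) and Eda2r (0.0732). Neighbours overlapped in the run of Mdm2, Phlda3 and Aen and nowhere else. By 30 h the order was Gadd45a (174.5), Ccng1 (61.0), Mdm2 (38.5), Trp53 (27.4), Phlda3 (8.92), Aen (8.24), Trp53inp1 (7.36), Mdm4 (5.25), Zmat3 (0.555) and Eda2r (0.361). There the values of Phlda3, Aen and Trp53inp1 overlapped between neighbours. Gadd45a thus moved from the sixth place to the first. Summed over the 10 genes the level was 530 to 541 CPM at day 0 and 1003 to 1059 CPM at 30 h, and with Trp53 and Gadd45a left out 258 to 266 CPM and 594 to 614 CPM.

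**Figure D4:**
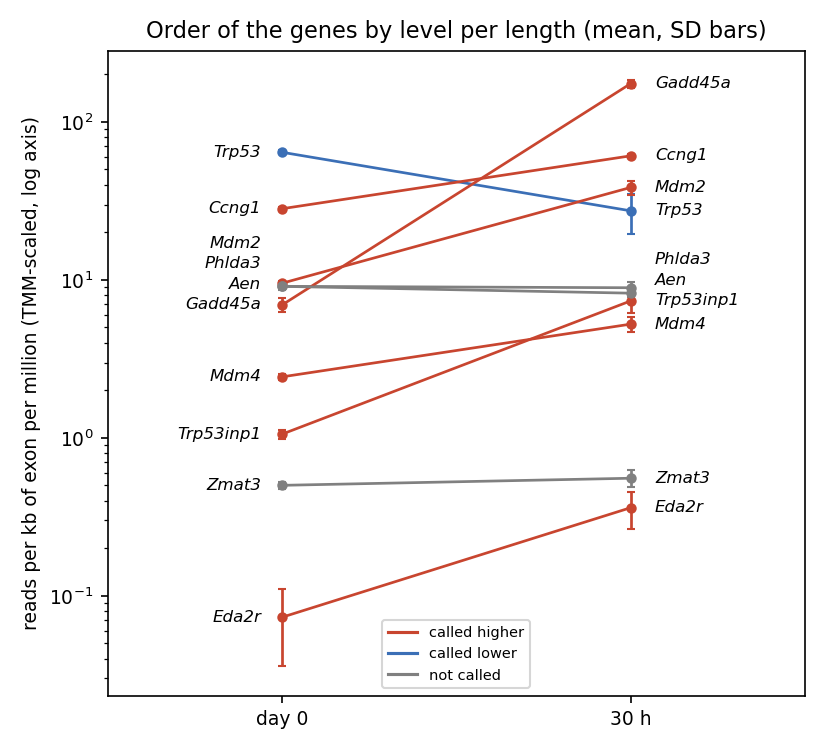
Mean level per length of each gene at day 0 and 30 h (CPM per kilobase of exon, log axis; bars are SD, n = 3), coloured by call, with names shifted where they would collide. Trp53 falls from the first place (64.3) to the fourth (27.4) and Gadd45a rises from the sixth (6.94) to the first (174.5).

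The genes whose pattern over the 6 libraries was most like that of Trp53, by Pearson's r of log2 CPM among 9124 protein-coding genes with a mean of at least 10 CPM, were Irgq (0.9998), Podxl (0.9996) and Polr2b (0.9996). Podxl, for example, stood at 153, 160 and 157 CPM at day 0 and at 80.1, 65.9 and 43.5 CPM at 30 h. For Mdm2 they were Map1lc3b, Atf4 and Tspo2 (0.9999 each), and for Ccng1 Zfp180, Mad2l1bp and Pot1a (0.9999 each). Such values are a description of 2 groups of 3 libraries: 1597 genes had an r above 0.95 with Trp53, 2453 with Mdm2 and 2430 with Ccng1.

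Further p53 targets outside the 10 genes moved mostly upward. Of 34 such genes, all tested, 22 were higher and 7 lower, with a median log2 change of 0.93, against 34.4% higher and 40.1% lower over all genes and a median of -0.09. In the group of arrest, repair and metabolism 14 of 20 were higher and 4 lower. Btg2, an antiproliferative gene, rose from 19.2 ± 0.73 to 259 ± 32.6 CPM (log2 change 3.75, edgeR adjusted p = 5.838e-07). Cdkn1a, encoding the cyclin-dependent kinase inhibitor p21, rose from 17.2 ± 1.51 to 169 ± 26.0 CPM (9.85-fold, edgeR adjusted p = 1.375e-06). The most abundant of them, Rps27l, a ribosomal protein gene relative, was 1.97-fold higher. Lower were Ak1, an adenylate kinase gene (3.55-fold), and Xpc, which recognises DNA damage (35.0 ± 0.16 and 15.2 ± 0.85 CPM, 2.31-fold).

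In the apoptosis group 8 of 14 genes were higher and 3 lower. Bbc3, encoding the death activator PUMA, rose from 6.90 ± 0.74 to 46.9 ± 7.47 CPM (6.80-fold, edgeR adjusted p = 3.485e-06). Casp1, which encodes a caspase of inflammation, rose 3.43-fold. Trp53i11 was 8.98-fold lower, at 14.0 ± 1.87 and 1.57 ± 0.30 CPM, and Perp, a junction protein gene, 1.67-fold lower. Perp did not pass edgeR's test against a 1.5-fold change (adjusted p = 0.08063), which called 1 gene of this group lower. Ei24, the most abundant, stood at 108 ± 5.51 and 120.0 ± 4.68 CPM and missed the threshold (edgeR adjusted p = 0.1717). Scaling by totals only turned it to -0.34 on the log2 scale and removing the GC trend raised it to 0.45, both past the threshold. Both groups kept a median above 0 in every scaling tried, at 0.55 and 0.21 with scaling by totals only. Many of these genes answer to other regulators too, and what drove them was not tested.

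Genes for proteins that act on p53 went both ways. Among 9 kinases and partners tested, 2 were higher and 5 lower, where 34.4% and 40.1% of all genes were. Their median log2 change was -0.73, with -0.26 after removing the GC trend and -1.22 under totals-only scaling, and a test against a 1.5-fold change called 2 lower. Hipk2, a kinase of p53, was 3.93-fold higher, with a wide spread at 30 h (85.9 ± 45.4 CPM), and the checkpoint kinase gene Chek2 1.91-fold higher. Dapk1 was 2.29-fold and the casein kinase gene Csnk1e 1.93-fold lower. Csnk1d, the most abundant, was 1.66-fold lower, but with the GC trend removed its log2 change of -0.73 became -0.26 and did not pass. The damage kinases Atm (1.87-fold) and Atr (1.71-fold), named here after their values were seen, were also lower. Prkdc and Chek1, damage kinases of the same list, did not pass, with log2 changes of 0.13 and 0.05. In the list of ubiquitin control 8 of 13 were higher and 3 lower, against the same 34.4% and 40.1% of all genes, with a median log2 change of 0.63 that was 0.14 under totals-only scaling. Rpl26 and Rpl5, genes of ribosomal proteins known to act on p53 translation and on MDM2, were 2.97-fold and 2.45-fold higher, though Rpl5 had only 53 to 86 counts in a library and reads of ribosomal protein genes may be lost to their pseudogenes in counting. Usp10, which removes ubiquitin from p53, was 2.45-fold lower, Ube4b 2.03-fold and Npm1, the abundant nucleolar protein gene, 1.76-fold (1032 ± 38.4 and 586 ± 66.3 CPM). Cdkn2a, the gene of the MDM2 inhibitor ARF, had 0 to 2 counts in a library and was not tested.

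Of 13 cofactors, modifiers and p53 family genes tested, 3 were higher and 8 lower, where 34.4% and 40.1% of all genes were. The split became 5 and 5 with the GC trend removed, and the median log2 change of -0.56 turned to 0.18. It was -1.04 under totals-only scaling. Without 30 h replicate 3 the counts were 5 and 8 and the median -0.32, and without day 0 replicate 2 5 were lower. The acetyltransferase genes Crebbp and Ep300 were 2.26-fold and 1.93-fold higher, the second not past the threshold with scaling by totals only (log2 change 0.46). Prmt5, an arginine methyltransferase gene, fell from 257 ± 1.52 to 82.5 ± 16.5 CPM (3.11-fold, edgeR adjusted p = 3.593e-05), and Smyd2, a lysine methyltransferase gene, was 2.81-fold lower.

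Sequence relatives of the 10 genes gave 6 higher and 3 lower of 12 tested, against 34.4% and 40.1% of all genes. Their median log2 change of 0.37 was unstable: it was -0.12 under totals-only scaling, 0.25 with the upper quartile, 1.09 with the GC trend removed and 0.10 with no filter on low counts. Leaving out 30 h replicate 2 gave 0.15 and leaving out 30 h replicate 3 gave 0.23. Ccng2, the relative of Ccng1, rose from 27.5 ± 1.58 to 118 ± 13.4 CPM (4.29-fold), a larger change than the 2.16-fold of Ccng1. Isg20, an exonuclease gene related to Aen, rose from 4.81 ± 0.84 to 40.4 ± 4.62 CPM (8.39-fold), where Aen did not pass. Gadd45b and Gadd45g, named here as the family of Gadd45a after their values were seen, were 3.96-fold and 3.44-fold higher. Phlda2, an imprinted relative of Phlda3, was 5.01-fold lower, and Tnfrsf19, a receptor gene related to Eda2r, 28.0-fold lower (20.5 ± 2.34 and 0.76 ± 0.55 CPM). Most markers of mesenchyme, endothelium and hepatoblasts fell too, and the part of cell makeup in these falls was not tested. Zmat2, the most abundant relative, was 2.01-fold higher. Differences between relatives were not tested.

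Genes that p53 is known to lower through p21 and the DREAM repressor complex were higher or did not pass. Of 15 cell cycle genes of this kind, 11 rose and none fell, against 34.4% of all genes called higher and 40.1% lower. Their median log2 change was 0.89. Ccnb2, a mitotic cyclin gene, rose from 163 ± 0.90 to 512 ± 28.7 CPM (3.15-fold, edgeR adjusted p = 2.738e-06), and Cenpa, the centromeric histone gene, was 3.14-fold higher. Mcm5, the most abundant, missed the threshold at 798 ± 12.5 and 895 ± 181 CPM (edgeR adjusted p = 0.3364). It passed without 30 h replicate 3 (log2 change 0.32) and with the GC trend removed (0.54), and stood at -0.32 under totals-only scaling. With that scaling 8 of the 15 were higher and none lower, where 3601 and 8791 of all 16150 genes tested were. Plk1, Bub1b and Cdc20, mitotic genes named here after their values were seen, did not pass in the TMM fit. Without 30 h replicate 3 all 15 genes were higher, where 6233 of 16824 genes tested were. With the GC trend removed 14 of the 15 were higher, where 6802 of 16144 genes tested were. The median was 0.40 with totals-only scaling.

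**Figure D5:**
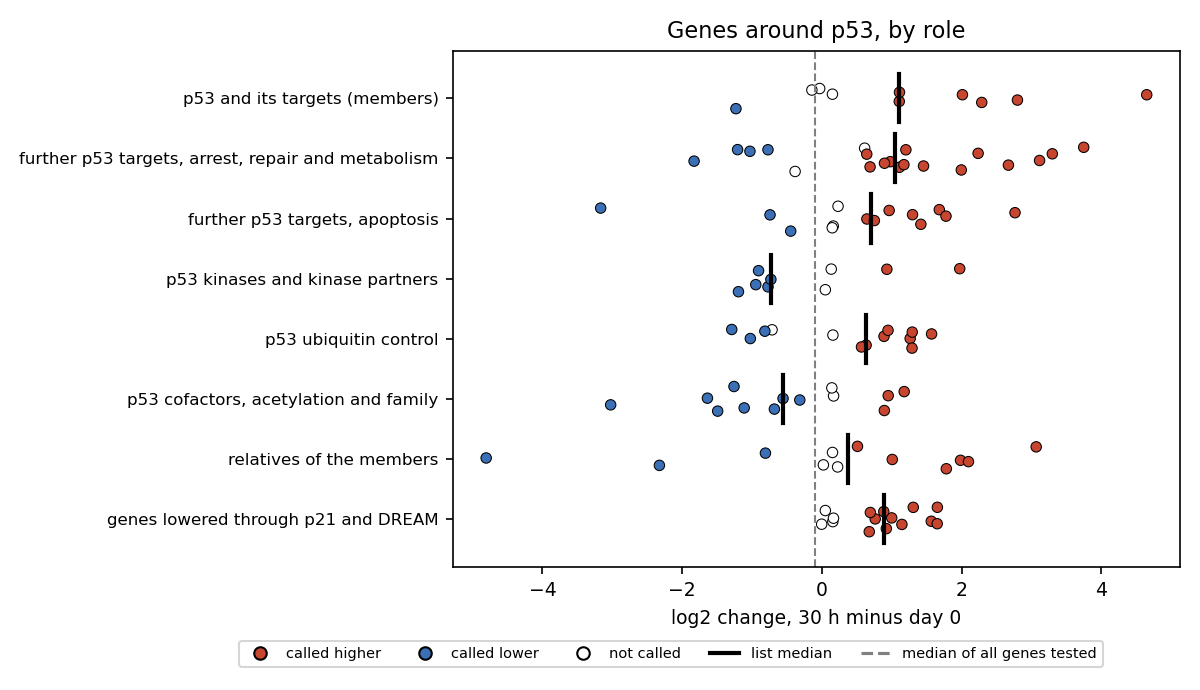
Log2 change from day 0 to 30 h of each gene tested, by list, with calls in colour, a black bar at each list's median and a dashed line at the median of all genes tested (-0.09). The median lies at 1.11 in the 10 genes, Trp53 among them, and at 1.05 and 0.70 in the lists of further targets. Medians of kinases and cofactors lie at -0.73 and -0.56, and that of the genes lowered through p21 and DREAM at 0.89.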

How the data were processed

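The authors deposited whole-number read counts per Ensembl mouse gene, 1 file per library. Tools listed in the submitters' processing notes are STAR, HTSeq 0.6.1p1, cutadapt 1.13 and DESeq2, with build mm10. Their settings, and any use of strand in counting, are not given in the sources used here. Symbols, positions and exon lengths come from GENCODE M21 (54165 of 54232 IDs matched; the other 67 held at most 0.0047% of a library's counts). Genes were kept by edgeR's filterByExpr (16150), scaled by TMM and tested with edgeR's quasi-likelihood test, robust, in all 6 libraries (R 4.3.3, edgeR 4.0.16). Adjustment was by Benjamini-Hochberg over all genes, with a threshold of 0.05. The F statistic gave standard errors and 95% intervals, and the common dispersion a biological coefficient of variation of 14.2%. The steps were tested on simulated data. CPM are TMM-scaled. GC trends were removed as a spline per library with 5 degrees of freedom, over GC content of the longest transcript. DESeq2 1.42.0 and limma 3.58.1 were alternatives. The genes and lists were chosen with earlier results of these data known, so counts over them are descriptions. The listed symbols Trp53rk and Rfwd2 matched no gene. Related genes were named by a rule: in each list the 2 largest called rises and falls among genes averaging 1 CPM or more, and the most abundant; exceptions are stated. Promoter windows come from RefSeq (GRCm38.p6).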

Additional observations from a re-analysis of the deposited data

How the results depend on the processing

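The calls of the 6 higher genes and of Trp53 held in all 17 alternatives. With scaling by library totals only, 3 of the 10 genes were lower and 3601 genes in all were higher (5553 with TMM), and with upper-quartile scaling 2 of the 10 were lower. The test against a 1.5-fold change left 17 related genes lower, of 26. Log2 changes with the other sign than in the TMM fit were -0.3355 for Zmat3 with totals only and 0.2217 for Aen with the GC trend removed. For Phlda3 they were 0.02058 with DESeq2 size factors in edgeR, 0.01908 in DESeq2 and 1.001 after GC correction. Over the libraries left out in turn Phlda3 ran from -0.1013 to 0.08935, around its TMM value of -0.03, so only part of that range had the other sign. The cause was not tested. Leaving out each library gave 6 higher and 1 lower of the 10 each time, 5041 to 6233 genes higher and 5976 to 7008 lower over all, and 50 to 62 higher and 23 to 28 lower among the related genes. Replicate numbers were not shown to pair the samples: deviations of same-numbered libraries correlated at -0.105, 0.105 and -0.029. Of 6 libraries 2 correlated best with their own number. A fit with a replicate block called 5254 genes higher and 6277 lower, and the calls of the 10 genes were the same. Of 32 named related genes 27 kept direction and call throughout. Eda2r, with 8 to 44 counts, is limited by depth.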
